A study of Homo sapiens with 4 samples.

Results

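Transcripts of 10 genes that platelets use to stick to a damaged vessel and to fill their granules were followed through early human hematopoietic differentiation. They were GP1BA, GP1BB, GP9, GP6, PF4, PPBP, PLEK, VWF, SELP and THBS1. They were found by gene symbol in a table of 58274 genes, where each of the 10 symbols matched 1 row. All cells were of BC1, a line of human induced pluripotent stem cells (iPSCs), kept in a medium based on mTeSR1. Activin A and BMP4 were given for the first 2 days, and VEGF and bFGF for up to 6 days after that. The libraries were made from undifferentiated BC1 cells and from 3 sorted populations. These were APLNR+ mesoderm cells of day 2, endothelial progenitors with blood potential (hemogenic endothelial progenitors, HEPs) sorted as CD31+CD34+ on day 5, and the blood progenitors (hematopoietic progenitor cells, HPCs) sorted as CD43+ on day 8. Each population was represented by 1 library of total RNA from 1 cell line, so no difference below has a replicate check and no test between populations was possible. Values are FPKM, fragments per kilobase of transcript, scaled to the number of mapped fragments. The unit was inferred from the values and the study's plots, since no header of the table states it. Folds and ratios of the 10 genes are given with 95% intervals that cover counting error only, or as lower bounds.

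Platelets are fragments shed by megakaryocytes, and circulating platelets rely largely on RNA and protein that the megakaryocyte made. Their first contact with a wound runs through the GPIb-IX complex, whose GP1BA subunit binds von Willebrand factor, the product of VWF. GP6 then binds collagen and signals into the cell, and the alpha granules release chemokines and adhesive proteins. VWF and SELP (P-selectin) are also stored by endothelial cells in Weibel-Palade bodies, and THBS1 (thrombospondin 1) is secreted by many cell types.

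The stretch of DNA in front of megakaryocyte genes often holds sites for GATA and ETS factors, so the promoters were examined for the letters that these factors are known to bind. The RefSeq promoter table (GRCh38.p14) held 7 of the 10 genes, and GP1BA, PF4 and VWF were not among them. The 250 bases before each RefSeq start were searched on both strands. GATAA, the core of a GATA site, or its reverse TTATC was found in 5 of 7 windows, against 20.4% of 35116 promoter windows of the same length. The matches began 34 bases before the start in GP1BB, 67 in GP9, 108 in SELP, 176 in GP6 and 216 in PPBP, and PLEK and THBS1 had none. GGAAG, the core of an ETS site, or its reverse CTTCC was found in all 7 windows, against 65.1% of all promoter windows. In PPBP one GGAAG shares a base with the GATAA match. These letter matches describe the sequence and are not measured sites. Shown 5′ to 3′ on the gene's strand, with GATAA in capitals, are the adhesion receptor genes GP9 (chr3:129060529-129060778, plus strand) and GP6 (chr19:55038265-55038514, minus strand), the chemokine gene PPBP (chr4:73988191-73988440, minus strand) and, as a window without the match, THBS1 (chr15:39580829-39581078, plus strand). The windows of GP1BB, PLEK and SELP reach 250, 109 and 69 bases into the gene as the deposited table places it and are not printed. The printed windows of GP9 and PPBP reach 12 and 7 bases into their genes.
GP9: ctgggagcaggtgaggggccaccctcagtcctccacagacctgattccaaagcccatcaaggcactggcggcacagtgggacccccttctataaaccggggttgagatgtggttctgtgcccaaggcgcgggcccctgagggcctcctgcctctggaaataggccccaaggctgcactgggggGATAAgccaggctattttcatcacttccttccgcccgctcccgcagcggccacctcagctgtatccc
GP6: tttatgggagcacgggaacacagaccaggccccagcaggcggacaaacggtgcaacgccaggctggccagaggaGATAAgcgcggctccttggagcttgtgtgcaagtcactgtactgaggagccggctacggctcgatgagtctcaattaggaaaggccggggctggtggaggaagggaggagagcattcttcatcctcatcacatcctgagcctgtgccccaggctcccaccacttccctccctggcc
PPBP: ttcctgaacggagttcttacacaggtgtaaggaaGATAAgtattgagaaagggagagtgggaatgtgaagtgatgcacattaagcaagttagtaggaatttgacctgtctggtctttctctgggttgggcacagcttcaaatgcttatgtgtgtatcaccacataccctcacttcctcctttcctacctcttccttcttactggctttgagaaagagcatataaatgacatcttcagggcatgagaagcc
THBS1: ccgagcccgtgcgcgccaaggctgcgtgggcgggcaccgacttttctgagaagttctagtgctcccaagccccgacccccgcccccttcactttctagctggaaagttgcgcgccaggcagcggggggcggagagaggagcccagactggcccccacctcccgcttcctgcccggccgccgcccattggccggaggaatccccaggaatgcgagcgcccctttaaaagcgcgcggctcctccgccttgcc

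Depth was recovered from the steps between low FPKM values and lay between 19630000 and 23610000 fragments. Between 13554 and 14335 genes reached 1 FPKM in a library, and mitochondrial genes took 5.80% to 8.16% of the summed FPKM. The genes of the sorting markers were compared with the labels. APLNR was highest in APLNR+ cells, PECAM1 (CD31) and CD34 reached 93.1 and 102 FPKM in the HEPs, and SPN (CD43) was highest in CD43+ cells at 92.4 FPKM. All 4 genes reached 1 FPKM in both the HEPs and the HPCs, so they were not confined to the population sorted by them. SPN, for example, was at 11.7 FPKM in the HEPs. The 4 genes summed to 416 FPKM in the HEPs and 286 FPKM in the HPCs.

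At the step from CD31+CD34+ HEPs to CD43+ HPCs, 8 of the 10 platelet genes rose, 1 fell and 1 stayed between. VWF was the gene that fell and GP6 the one that stayed between. A gene is said to have risen or fallen when log2(FPKM + 1) changed by at least 2. Of all 17137 genes that reached 1 FPKM in at least 1 library, 2.28% rose and 4.32% fell by as much at this step. From APLNR+ to CD31+CD34+ cells, 4 platelet genes rose (GP1BA, PF4, VWF and SELP) and 0 fell, against 4.08% and 3.15% of all genes. From BC1 to APLNR+ cells 0 rose and 0 fell, against 2.68% and 2.29% of all genes. The median change of the 10 genes was -0.03, 0.61 and 5.17 at the 3 steps in order of differentiation, and that of all genes was 0.00, 0.01 and -0.08. All 10 genes passed the filter of 1 FPKM, but GP9, GP6, PPBP and PLEK passed it only through the CD43+ library, so the counts at the last step follow in part from the filter. In bulk RNA, fewer cells of a type and less RNA per cell cannot be told apart.

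**Figure D1:**
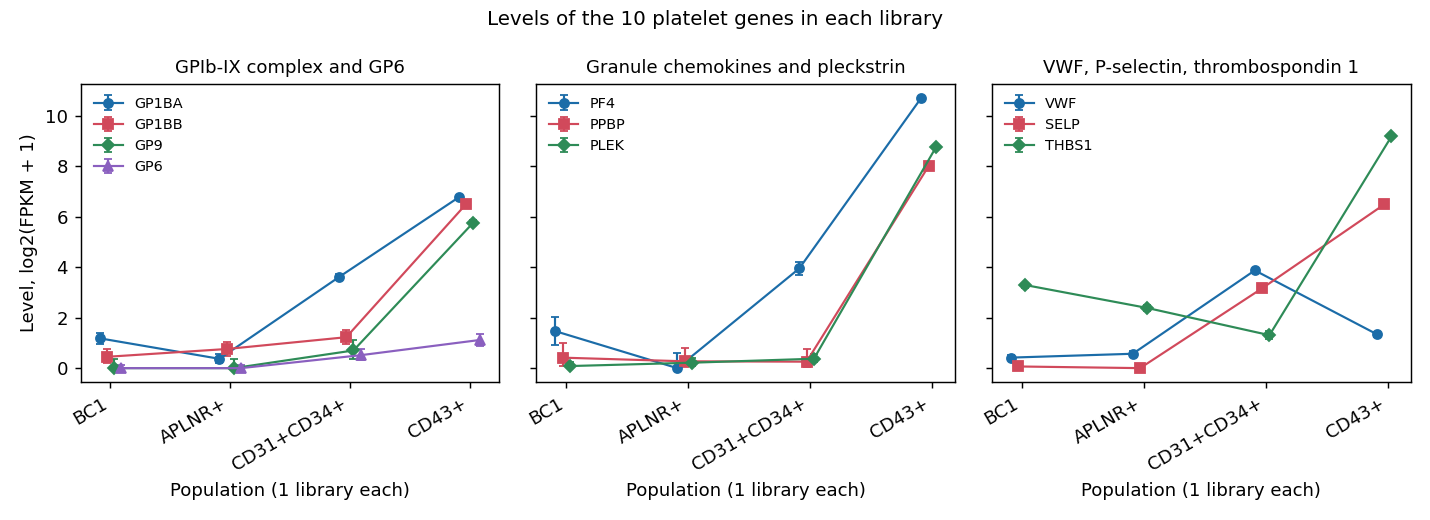
Level of each platelet gene, log2(FPKM + 1), in each of the 4 libraries, ordered from BC1 to the HPCs. Bars are 95% counting intervals and lines join values of one gene. GP1BB, GP9, PPBP and PLEK stay near the bottom until CD31+CD34+ and rise in CD43+. GP1BA, PF4 and SELP rise over both of the last steps, THBS1 declines before its rise, GP6 stays low and VWF peaks in CD31+CD34+.

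The GPIb-IX complex is built from GP1BA, GP1BB and GP9, and all 3 subunits rose from CD31+CD34+ to CD43+. GP1BA, the subunit that binds von Willebrand factor (chr17:4932297-4935030), was at 1.27 FPKM in BC1 and 0.292 FPKM in mesoderm cells, and reached 11.2 in the HEPs and 108 in the HPCs. It was 4.35-fold lower in APLNR+ cells than in BC1 (95% interval 2.44 to 9.03). It was then 38.5-fold higher in CD31+CD34+ than in APLNR+ cells (23.2 to 75.5) and a further 9.64-fold higher in CD43+ cells (8.84 to 10.5). GP1BA was thus already above its BC1 level in the HEPs.

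GP1BB, the beta subunit, which is joined to GP1BA by disulfide bonds (chr22:19722945-19724771), was at 0.364, 0.690, 1.34 and 89.3 FPKM in the same order. BC1 and APLNR+ cells did not differ beyond counting error (1.89-fold, 0.837 to 4.87). The HEPs were 1.94-fold above the mesoderm cells (1.10 to 3.55), and the HPCs were 66.7-fold above the HEPs (49.1 to 94.1). Almost the whole rise of GP1BB therefore fell in the last step. GP1BB lies on the same strand as SEPT5 and overlaps it over 1280 of its 1827 bases. SEPT5 was at 7.24, 15.98, 8.05 and 47.8 FPKM, and how fragments were shared between both genes is not known.

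GP9, the third subunit, needed for the complex to reach the cell surface (chr3:129060767-129062406), was listed at 0 in BC1 and APLNR+ cells. It had 0.625 FPKM in the HEPs, from 9 fragments, and 53.2 FPKM in the HPCs. Against the floor of 3 fragments used for a library without any, it was at least 2.80-fold higher in CD31+CD34+ than in APLNR+ cells. From there to CD43+ cells it rose 85.2-fold (44.5 to 187), a wide interval that comes from the 9 fragments.

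GP1BA stood further above the other subunits in the HEPs than in the HPCs. It was at 18.0 times the FPKM of GP9 in the HEPs (9.38 to 39.4) and at 2.03 times in the HPCs (1.88 to 2.20). Against GP1BB it was at 8.39 times (6.11 to 11.9) and then 1.21 times (1.15 to 1.27). The ratio of GP1BB to GP9 was 2.14 (1.02 to 4.98) and then 1.68 (1.54 to 1.83), and these intervals overlap. The gene of GP5, which binds to the assembled complex on the platelet surface, was lower than its partners. It had 0.0781 FPKM in the HEPs and 15.3 FPKM in the HPCs, where GP1BA was at 7.09 times its level (6.63 to 7.58). GP1BA also shares 2142 of its 2734 bases with CHRNE on the opposite strand, which was at 2.16 and 10.9 FPKM in the last 2 populations. The sources used do not say whether strand was counted.

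GP6, the collagen receptor (chr19:55013705-55038264), stayed low in every library. It was listed at 0 in BC1 and APLNR+ cells. The HEPs had 0.427 FPKM, from 20 fragments, and the HPCs 1.17 FPKM, from 49. The HPCs were 2.74-fold above the HEPs (1.57 to 4.77), beyond counting error but a change of only 0.61 on the log2 scale. The HEPs were at least 6.02-fold above the mesoderm cells. GP6 reaches the surface only with the Fc receptor gamma chain, the product of FCER1G, which was at 30.4 and 140 FPKM in the same 2 libraries. FCER1G was thus at 71.3 times (44.4 to 117) and 119.5 times (90.2 to 164) the FPKM of GP6, with intervals that overlap.

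PF4 and PPBP, the chemokine genes of the alpha granule, lie next to each other on chromosome 4, and their products are among the most abundant granule proteins. PF4, platelet factor 4 (chr4:73981077-73982124), was at 1.76 FPKM in BC1, listed at 0 in APLNR+, and at 14.4 and 1674 FPKM in the HEPs and HPCs. In the HPCs it was the highest of the 10 genes and ranked 62 among the 17137 genes by level. The rise at the last step was 116-fold (95.7 to 140). The HEPs were at least 35.5-fold above the mesoderm cells, and the mesoderm cells at least 4.33-fold below BC1, whose value came from 12 fragments.

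PPBP, pro-platelet basic protein (chr4:73987038-73988197), was at 0.334, 0.206, 0.194 and 256 FPKM. The first 3 values came from 3, 2 and 2 fragments and give no order among themselves. From CD31+CD34+ to CD43+ the ratio was 1317, with an interval of 363 to 10849 that the 2 fragments make wide. In the HPCs PF4 was at 6.55 times the FPKM of PPBP (6.26 to 6.84). In the HEPs the ratio rests on 2 fragments of PPBP and can only be placed between 20.1 and 623. PF4V1, a near-identical copy of PF4, was listed at 0 in the HEPs and was at 33.0 FPKM in the HPCs. PF4 stood at 50.7 times that level there (43.6 to 59.3), and reads of both copies can be confused.

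PLEK encodes pleckstrin, the main substrate of protein kinase C in platelets (chr2:68365173-68397453). Its level was 0.0584, 0.161, 0.294 and 430 FPKM from BC1 to the HPCs. The first 3 libraries gave 3, 9 and 18 fragments, and neither neighbouring pair among them differed beyond counting error (2.75-fold, 0.687 to 15.8, and 1.83-fold, 0.780 to 4.62). Over both steps the HEPs were 5.04-fold above BC1 (1.47 to 26.7). CD43+ cells were 1460-fold above CD31+CD34+ cells (923 to 2462). PLEK had the largest change of the 10 genes on the log2 scale, 8.38, which ranked 4 among all 17137 genes. Of the other platelet genes, THBS1 ranked 7, PPBP 9, PF4 14, GP1BB 27 and GP9 31.

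VWF, SELP and THBS1 encode adhesive proteins that platelets share with other cells, and each took its own course. VWF (chr12:5948874-6124770) was at 0.335 FPKM in BC1 and 0.484 FPKM in mesoderm cells, rose to 13.7 in the HEPs and was back at 1.54 in the HPCs. It was the only one of the 10 that was highest in the HEPs. It stood 28.2-fold above the mesoderm cells there (22.8 to 35.2) and was 8.88-fold lower in the HPCs (7.87 to 10.1). The HPCs still held 4.59 times the level of BC1 (3.46 to 6.27), from 283 fragments.

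SELP, the P-selectin that moves from granule membranes to the surface when a platelet is activated (chr1:169588849-169630193), was at 0.0467 FPKM in BC1, from 2 fragments, listed at 0 in APLNR+, and at 7.96 and 88.5 FPKM in the HEPs and HPCs. It was at least 122-fold higher in the HEPs than in the mesoderm cells and then rose 11.1-fold (10.04 to 12.4). SELP and VWF, whose products share the same storage granules, rose together at one step and moved apart at the next. The ratio of SELP to VWF was 0.583 in CD31+CD34+ (0.523 to 0.647) and 57.6 in CD43+ cells (51.1 to 65.3).

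THBS1, thrombospondin 1 (chr15:39581079-39599466), ran the other way at first. It was at 8.79, 4.22, 1.47 and 579 FPKM, with a lower level at each step before the last. The mesoderm cells were 2.08-fold below BC1 (1.83 to 2.38) and the HEPs 2.86-fold below the mesoderm cells (2.34 to 3.50). The HPCs were 393-fold above the HEPs (331 to 467) and 65.9-fold above BC1 (61.1 to 71.2). It was the only one of the 10 whose lowest level was in the HEPs beyond counting error. An antisense gene inside THBS1, AC037198.2, was at 0.379, 0.177, 0 and 54.9 FPKM, and without strand its fragments cannot be told from those of THBS1.

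**Figure D2:**
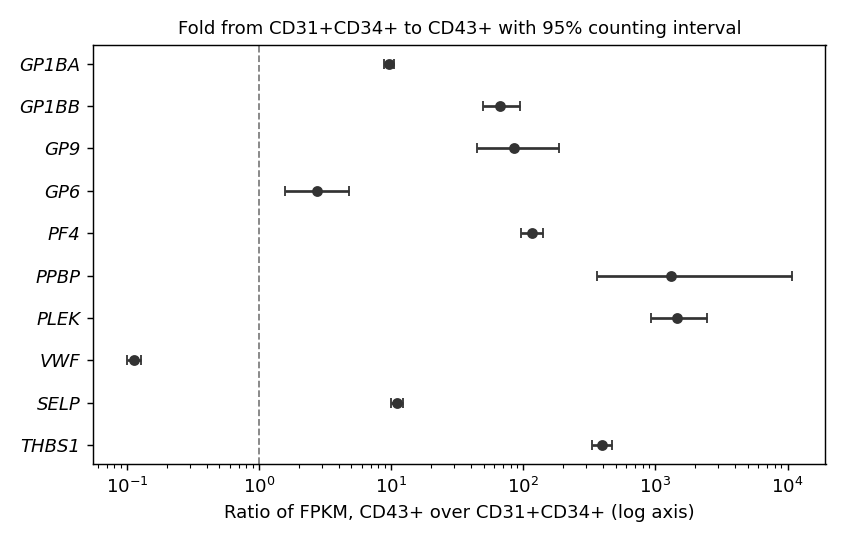
Ratio of FPKM in CD43+ over CD31+CD34+ for each platelet gene on a log axis, with 95% counting intervals and a dashed line at 1. The ratios run from 2.74 for GP6 to 1460 for PLEK, VWF lies below 1, and PPBP has the widest interval.

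The 10 genes together summed to 12.96, 6.05, 51.6 and 3281 FPKM, and in CD43+ cells this was 0.497% of the FPKM of all genes. The gene that led the sum changed. THBS1 made up 67.8% of it in BC1 and 69.7% in APLNR+ cells, whereas PF4 made up 28.0% in CD31+CD34+ and 51.0% in CD43+ cells. At least 1 FPKM was reached by 3, 1, 6 and 10 of the genes in the 4 populations. In CD43+ cells 7 of them stood in the top decile of the 17137 genes by level. Their levels there, per length, ran in the order PF4, THBS1, PLEK, PPBP, GP1BA, GP1BB, SELP, GP9, VWF and GP6, and VWF and GP6, at 1.54 and 1.17 FPKM, stood far below the other 8, which were at 53.2 FPKM or more. The counting intervals of GP1BB and SELP overlapped, as did those of VWF and GP6, so the order within these pairs is not set.

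**Figure D3:**
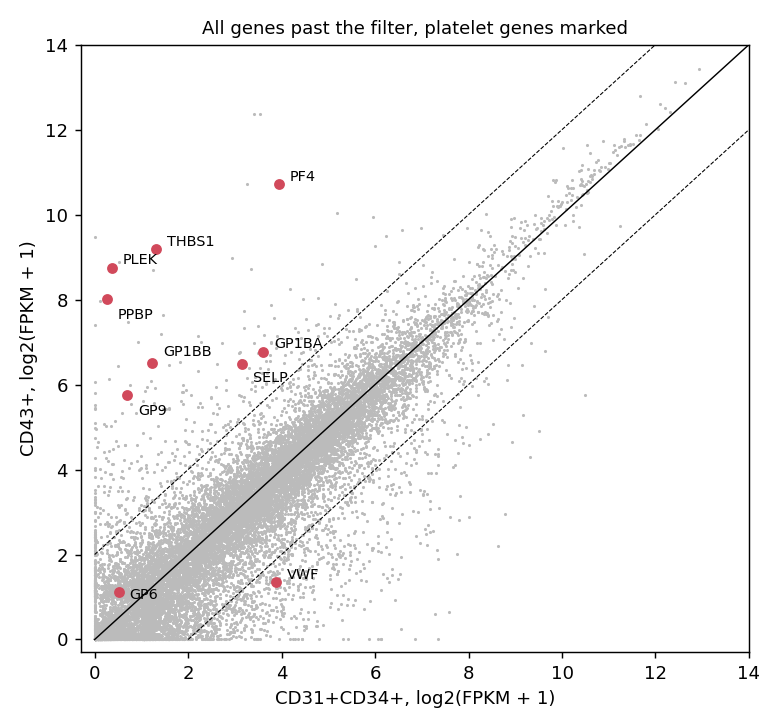
Each point is 1 of the 17137 genes, placed by log2(FPKM + 1) in CD31+CD34+ (x axis) and CD43+ (y axis). The solid line marks equal levels and the dashed lines a change of 2. Of the 10 platelet genes, in red, 8 lie above the upper dashed line, GP6 lies between the lines and VWF below them.

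Other genes of platelet formation and function were counted in 7 lists of 116 genes grouped by role, of which 112 passed the filter. Of these, 5 rose and 6 fell at the first step, from BC1 to the mesoderm cells, against 2.68% and 2.29% of all genes. In the HEPs 30 had risen and 1 had fallen against the mesoderm cells, where the shares of all genes were 4.08% and 3.15%. In the HPCs 41 had risen and 3 had fallen against the HEPs, where the shares were 2.28% and 4.32%. The shares of the last step also apply to each list below. Of the megakaryocyte transcription factors, 8 of 12 rose at the step to the HEPs and 4 of 12 at the step to the HPCs. GATA1, the GATA factor of red cells and megakaryocytes, was listed at 0 in BC1 and APLNR+ cells and went from 13.4 to 190 FPKM between HEPs and HPCs. NFE2, needed for platelet release, went from 12.6 to 235 FPKM, GFI1B from 35.9 to 188, and ZFPM1, a partner of GATA1, from 13.4 to 69.3.

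Among adhesion receptors and their partners, 9 of 14 rose at the last step and 0 fell. ITGA2B and ITGB3, which form the fibrinogen receptor, went from 60.9 to 982 and from 6.68 to 501 FPKM. GP5, described above, and CD226, from 7.68 to 107 FPKM, were the others with the largest changes. Of the receptors for soluble agonists, 4 of 8 rose and 0 fell. P2RX1, an ATP-gated channel, went from 6.06 to 68.3 FPKM, ADRA2A, an adrenergic receptor, from 10.7 to 83.5, and F2RL3, a thrombin receptor, from 2.74 to 19.0.

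Of the genes that signal from receptors to the integrin, 6 of 19 rose and 0 fell. APBB1IP went from 0.583 to 53.3 FPKM, the adaptor genes DOK2 and LAT from 0.270 to 31.4 and from 10.4 to 165, and FERMT3 (kindlin 3, which activates integrins) from 93.8 to 790. In the cytoskeleton list 6 of 14 rose and 0 fell. TUBB1, the tubulin of the platelet's marginal band, went from 0.238 to 68.9 FPKM, ARHGAP6 from 2.63 to 55.5, CNST from 11.2 to 76.3 and WAS, an actin regulator, from 11.97 to 76.3.

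Of 22 genes for alpha granule contents, 6 rose and 3 fell at the last step, against 2.28% and 4.32% of all genes. SRGN, the serglycin core protein that holds PF4 in the granule, went from 0.410 to 85.8 FPKM, and ANGPT1 from 0.491 to 39.5. PF4V1 was at least 62.9-fold higher. FN1, fibronectin, fell from 90.6 to 5.73 FPKM, as did SPARC (648 to 125) and GAS6 (6.70 to 0.601), and the last 2 are named because they complete the 3 that fell, after their values were seen. Genes for granule biogenesis and dense granules rose in 6 of 23 cases and fell in 0. RAB27B, a GTPase of granule secretion, went from 0.705 to 45.9 FPKM, the transporter gene ABCC4 from 12.5 to 92.5, UNC13D from 15.7 to 89.8 and STXBP2 from 48.1 to 219.

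**Figure D4:**
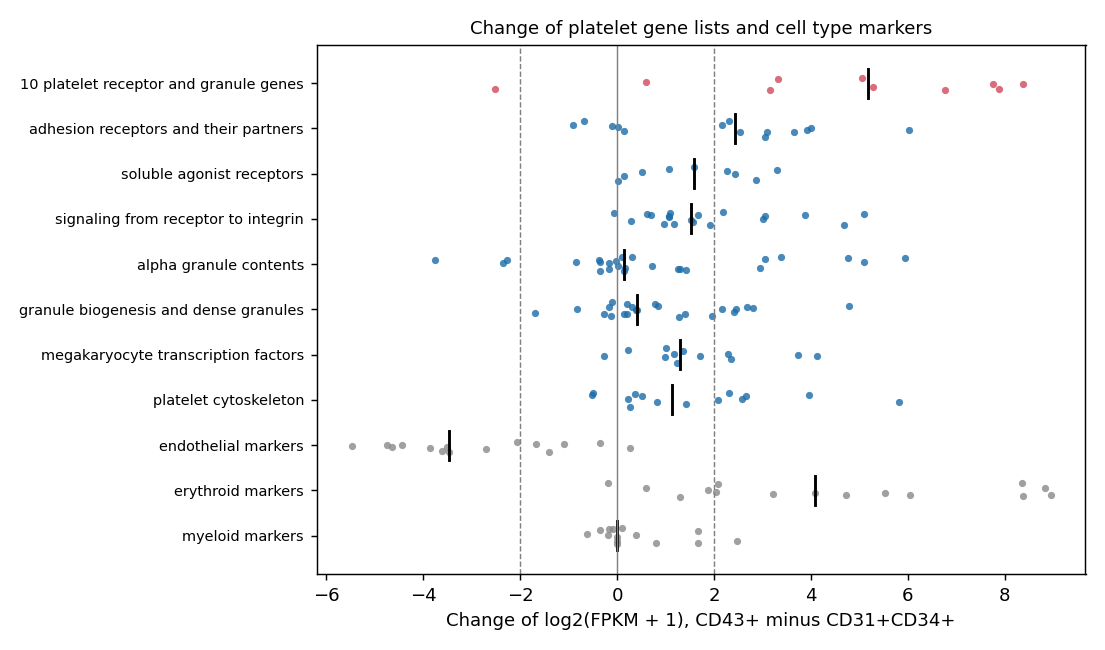
Change of log2(FPKM + 1) from CD31+CD34+ to CD43+ for each gene (points) of the 10 platelet genes, the 7 platelet lists and 3 lists of cell type markers, genes below the filter included. Black bars are medians and dashed lines mark a change of 2. The median of the 10 genes is 5.17, and endothelial markers lie mostly to the left and erythroid markers to the right.

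Markers of other cell types moved over the same step, at which 2.28% of all genes rose and 4.32% fell. The 15 endothelial markers summed to 91.7, 137, 3799 and 582 FPKM from BC1 to the HPCs, and 10 of them fell from CD31+CD34+ to CD43+, as VWF did. All 15 were above 0 in CD43+ cells, but only 11 reached 1 FPKM there. EGFL7 at 302 and ESAM at 76.5 FPKM were the highest. SOX17, at 0.157 FPKM, was the lowest of the 15 and is named after its value was seen. The 7 genes of Weibel-Palade bodies and endothelial activation summed to 10.5, 16.5, 148 and 71.6 FPKM. VCAM1 was listed at 0 in CD43+ cells, but it had only 1 fragment in the HEPs. Of the 7 genes 5 passed the filter, and of these 3 fell and 0 rose at the last step, whereas SELP rose. The 15 erythroid markers summed to 11.6, 41.2, 125 and 12225 FPKM, with HBE1 at 5271 and HBG2 at 5256 FPKM in CD43+ cells. Of the 14 that passed the filter, 11 rose at the last step with the platelet genes. The 14 myeloid markers summed to 3.64, 9.89, 43.9 and 134 FPKM. SPI1 was at 104 and LYZ at 12.7 FPKM in CD43+ cells, where ELANE, PRTN3, FCN1, S100A8 and S100A9 were listed at 0. The 9 fibroblast and smooth muscle markers summed to 530 FPKM in the HEPs and 86.7 FPKM in the HPCs, with DCN listed at 0 in CD43+ cells. The 8 pluripotency markers summed to 3692 FPKM in BC1 and 195 in CD43+ cells, where SOX2 and TDGF1 were listed at 0. The 8 lymphoid markers summed to at most 3.27 FPKM, with CD3E and MS4A1 listed at 0 in CD43+ cells. The part of these cells in the levels of the platelet genes was not tested.

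The protein-coding genes most alike in level to each platelet gene were found by the root mean squared (RMS) difference of log2(FPKM + 1) over the 4 libraries, among 13910 genes. With 4 points each, this likeness is a description. GP1BA was closest to SPN, the gene of the CD43 marker (RMS difference 0.14), then WAS and NFE2. GP1BB was closest to ZBTB16 (0.26), then SRGN and IFIT1, and GP9 to APBB1IP (0.10), then TUBB1 and CXCL2. GP6 was closest to SIGLEC7 (0.07), then CATSPER1 and CHRM2, all with at most 1.46 FPKM in any library. Globin genes came first for PF4, PPBP and PLEK, but PF4 had no close match. PF4 was closest to HBE1 (0.98), then HBG2 and FOSB, PPBP to HBD (0.22), then HBA2 and PLEK, and PLEK to HBZ (0.16), then HBA2 and PPBP. VWF was closest to DLL4, an arterial Notch ligand (0.23), then ITGA10 and PTPRE. SELP was closest to CAVIN2 (0.15), then P2RX1 and LY6G6F. THBS1 had no close match, with COL2A1, SLC37A1 and IFI27 the nearest.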

How the data were processed

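RNA sequencing libraries were made from Trizol-extracted total RNA with a TruSeq kit, 1 library for each of 4 populations. The authors deposited 1 table of gene-level FPKM values, with 1 column per library. No header states the unit, which was inferred from the values, the axis of a plot in the study and the whole fragments recovered. The submitters' processing notes name BWA, Bowtie, RSEM and hg19 without saying what each was used for, and program versions and strand are not given in the sources used here. Gene identifiers were nonetheless found in GENCODE release 29 for GRCh38 in 99.5% of cases, in any version, and of 55572 with the same version nearly all had the same position, and positions are therefore those of GRCh38 with the first base as 1.

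The table held 58365 rows for 58274 identifiers, and rows of an identifier listed more than once (90 identifiers) were summed. For genes with 1 transcript of at least 1000 bases, the depth and a length taken off (255 to 280 bases) were fitted so that low values became whole numbers of fragments. Between 84.3% and 86.3% fell within 0.1 of a whole number. Fragments of each gene were then computed with the median over its protein-coding transcripts as length, which is too short or too long for genes that mainly use another transcript. Levels got exact Poisson and folds exact Clopper-Pearson 95% intervals, which cover counting error only and not the spread between cultures or sorts. A library with 0 fragments was set to a floor of 3 fragments and the fold given as a lower bound. Values of 1 to 3 fragments were used as they were, a departure from the planned rule, which took them as the floor. No fold was given where both libraries were at or under the floor.

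Values were analysed as log2(FPKM + 1), which understates changes of low genes, and genes under 1 FPKM in all 4 libraries were left out of counts. With 1 library per population, neither tests nor p-values were possible. The depth fit, the calls of change and the fold intervals were tested on simulated data that held counting error only. Genes as low as GP1BB, GP9, GP6, PPBP, PLEK and THBS1 in the HEPs were not among those changed there. Folds from such levels were therefore not tested. Of each platelet list, up to 4 genes with the largest change from CD31+CD34+ to CD43+ among those reaching 10 FPKM were named, as were the 3 protein-coding genes most alike to each of the 10 genes, the 2 highest markers of a cell type list in CD43+ cells, and markers listed at 0. One gene named by this rule is not reported here. The 10 genes and all lists were chosen with earlier results of these data known. Alternatives were a pseudocount of 0.1, equal total FPKM, median ratio scaling, a change of at least 1, other filters, the mean in place of the median, and the longest transcript. Python 3.11.15, numpy 2.4.6, pandas 2.3.3, scipy 1.17.1 and matplotlib 3.10.9 were used.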

Additional observations from a re-analysis of the deposited data

How the results depend on the processing

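Of 90 alternative values of the counts and medians, 76 stayed and 14 moved. A count stayed if it was within 1.5 times the main count. A median stayed if it shifted by no more than the mean half-width of the genes' counting intervals. A change of sign was looked for only in the median at the last step, the only one of at least 2, and was not seen there. With a pseudocount of 0.1, which gives more weight to genes near 0, 1 of the 10 genes (PF4, a change of -4.22) fell from BC1 to APLNR+, and GP9 and GP6 joined the genes that rose from APLNR+ to CD31+CD34+, with changes of 2.86 and 2.40. The median change of the 10 genes was then 2.63 at that step, against 0.61, and 6.08 at the last step, against 5.17. With the same pseudocount 12 other platelet genes rose and 11 fell from BC1 to APLNR+, and 5 fell from APLNR+ to CD31+CD34+. Averaging the changes instead of taking their median gave 1.44 from APLNR+ to CD31+CD34+. With a change of at least 1, 1 of the 10 genes (PF4) fell at the first step and 1 (THBS1) at the second, while of the other platelet genes 13 rose and 14 fell at the first, 46 rose and 9 fell at the second, and 63 rose at the third. The remaining settings changed no count of the 10 genes that rose or fell by more than 1.5 times, though a filter of 5 FPKM left 9 of them, without GP6. Of 112 alternative values of single genes, 77 stayed and 35 moved. A change stayed if it shifted by no more than the half-width of the gene's counting interval. Where a gene had no such interval, any shift counted as moved, however small. The lower end of an interval stayed if it lay within the main interval. A change of sign was looked for only in changes of at least 2 and was not seen. Equal total FPKM took the median change of all genes at the last step from -0.08 to -0.17 and median ratio scaling to 0.00. No paired analysis was possible because each population had 1 library. Depth limits PPBP, PLEK, SELP, GP9 and GP6 before the HPC stage, where 0 to 20 fragments were counted for each of them except SELP in the HEPs. It also limits PF4 (12 and 0 fragments) and GP1BB (9 and 19) in BC1 and APLNR+ cells, and GP1BA (13) in APLNR+ cells.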

Other observations

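Some platelet genes of the lists were low in CD43+ cells, and they are named after their values were seen. P2RY12, the receptor for ADP, was at 0.0685 FPKM, from 2 fragments, F5 (coagulation factor V) at 0.0893 and F13A1 (coagulation factor XIII A) at 0.224 FPKM. P2RY12 was listed at 0 in BC1 and APLNR+ cells and was at 0.0622 FPKM in CD31+CD34+ cells. F5 was highest in APLNR+ cells, at 1.34 FPKM against 0.1005 in the HEPs. F13A1 was also highest there, at 2.64 FPKM against 0.0911. CLEC1B, the podoplanin receptor, went from 0 to 3.96 FPKM between CD31+CD34+ and CD43+ cells, while MMRN1, a carrier of factor V in the alpha granule, went from 12.5 to 102 FPKM.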
